A study of Schizosaccharomyces pombe with 24 samples.

Results

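The genes described here are 10 cell-cycle regulators of the fission yeast Schizosaccharomyces pombe, which act at the arrest in G1 that follows loss of nitrogen and at the control of the mitotic kinase. They are cdc2 (SPBC11B10.09), cdc13 (SPBC582.03), cig2 (SPAPB2B4.03), puc1 (SPBC19F5.01c), rum1 (SPBC32F12.09), ste9 (SPAC144.13c), wee1 (SPCC18B5.03), cdc25 (SPAC24H6.05), cdc10 (SPBC336.12c) and cdc18 (SPBC14C8.07c). The members were listed by name, with no rule on their values but with earlier results of these data known. They make up 10 of the 6878 features in the tables. What was measured is small RNA: RNA of 20 to 30 nt cut from a gel, sequenced, and counted over each annotated gene. A value is therefore the level of short RNA fragments that map to a gene, and it is not a measurement of its messenger RNA or protein.

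The 24 libraries came from 4 haploid strains, each sampled before nitrogen was removed (0 h) and at 1, 2, 4, 10 and 24 h after it. The wild type was 975 h+, and the other strains were labelled as the same h+ background carrying ago1D::NatMX6, clr4D::NatMX6 or dcr1D::NatMX6, deletions of the Argonaute, the histone H3 lysine 9 methyltransferase and the Dicer of the RNA interference pathway. Cells grew at 32 °C in EMM minimal medium with amino acid, adenine and uracil supplements, were washed in EMM without nitrogen and were then kept in it at 32 °C. The study compared the small RNA of the 4 strains under nitrogen starvation. Each strain and time had 1 library, so strains were compared over their 6 times and times over the strains. The labels do not say whether libraries came from separate cultures, and the p-values measure only the spread between these libraries.

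As background, cdc2 encodes the single cyclin-dependent kinase that drives the fission yeast cell cycle, and cyclins decide when it is active. Cdc13 is the mitotic B-type cyclin, Cig2 the main S-phase cyclin, and Puc1 a G1 cyclin. Rum1 inhibits the kinase, and Ste9, the fizzy-related activator of the anaphase-promoting complex (APC/C), targets cyclins for destruction. Both are needed for the arrest in G1 that nitrogen-starved cells enter before they mate or become quiescent. Wee1 phosphorylates Cdc2 on tyrosine and holds it inactive, and Cdc25 removes that phosphate. Cdc10 is a subunit of MBF, the transcription factor of the G1/S transition, and cdc18, which encodes the loader of the replicative helicase, is one of its classic targets, as is cig2.

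Total gene counts ran from 117245 to 2121235 per library, and the 10 members had between 335 (ste9) and 2191 (cdc13) counts each over the 24 libraries. No member was at 0 in any library, but single libraries held as few as 2 counts of cdc2 and at most 332 of cdc13. All 10 members passed the filter on low counts in every fit. Each library was compared by correlation with the other strains' profiles at every time, with ago1D left out of those profiles. All 18 libraries outside ago1D came closest to their own labelled time, and 3 of the 6 ago1D libraries did. Among the 18 the correlation with the own time ran from 0.251 (wild type 10 h) to 0.886 (dcr1D 0 h), so some matches were weak. The library labelled ago1D 0 h was closest to 1 h, that labelled 1 h to 2 h and that labelled 2 h to 0 h, so ago1D was kept out of the comparisons of times. Counts of ago1 in the ago1D libraries were 0 to 8 against 11 to 35 in wild type. Counts of clr4 were not lower in the libraries labelled clr4D (25 to 85 against 9 to 31 in wild type, log2 difference 1.35 ± 0.20 (SE), adjusted p = 0.000266 by edgeR), and those of dcr1 did not differ detectably in the libraries labelled dcr1D (log2 difference 0.05 ± 0.20, adjusted p = 0.902). The counts thus bear out the label of ago1D and not those of clr4D and dcr1D, and every direction given below for clr4D or dcr1D belongs to the libraries so labelled.

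The libraries labelled clr4D and dcr1D also carried small RNA of mating, meiosis and spore genes that the wild type and ago1D libraries had little of. The summed level of 4 spore genes (isp3, bgs2, agn2, meu10) was 97.2 to 192 CPM (counts scaled to a common library size with edgeR's normalisation factors) in wild type and 145 to 308 in ago1D. In clr4D and dcr1D it was 17907 to 57606 CPM at 10 h and 2744 to 11404 at 24 h. The 9 meiosis genes summed to 43.8 to 115 CPM in wild type, with mei3 at 0 in all its libraries, to 38.9 to 102 in ago1D, with mde2 at 0, and to 796 to 1825 in clr4D and dcr1D at 10 h. The 5 M-cell genes, which cells of the h- mating type express, summed to 52.5 to 102 CPM in wild type and 45.6 to 85.5 in ago1D. In clr4D and dcr1D they summed to 1321 to 1332 CPM at 4 h, 1300 to 3514 at 10 h and 2369 to 2613 at 24 h. The 2 P-cell genes, which h+ cells express, were high there as well. They summed to 102 to 342 CPM at 4 h, 429 to 853 at 10 h and 209 to 414 at 24 h. In wild type the P-cell sum was 8.54 to 108 CPM and in ago1D 20.7 to 111, over all times as for the M-cell genes. The labels give h+ for clr4D and dcr1D, and why M-cell genes were high in them was not tested. The spore and meiosis genes peaked with the 10 h values of clr4D and dcr1D reported below, the M-cell genes were already high at 4 h, and their part in those results was not tested. In such bulk samples a change in the share of one kind of cell and a change in the small RNA per cell cannot be told apart.

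**Figure D1:**
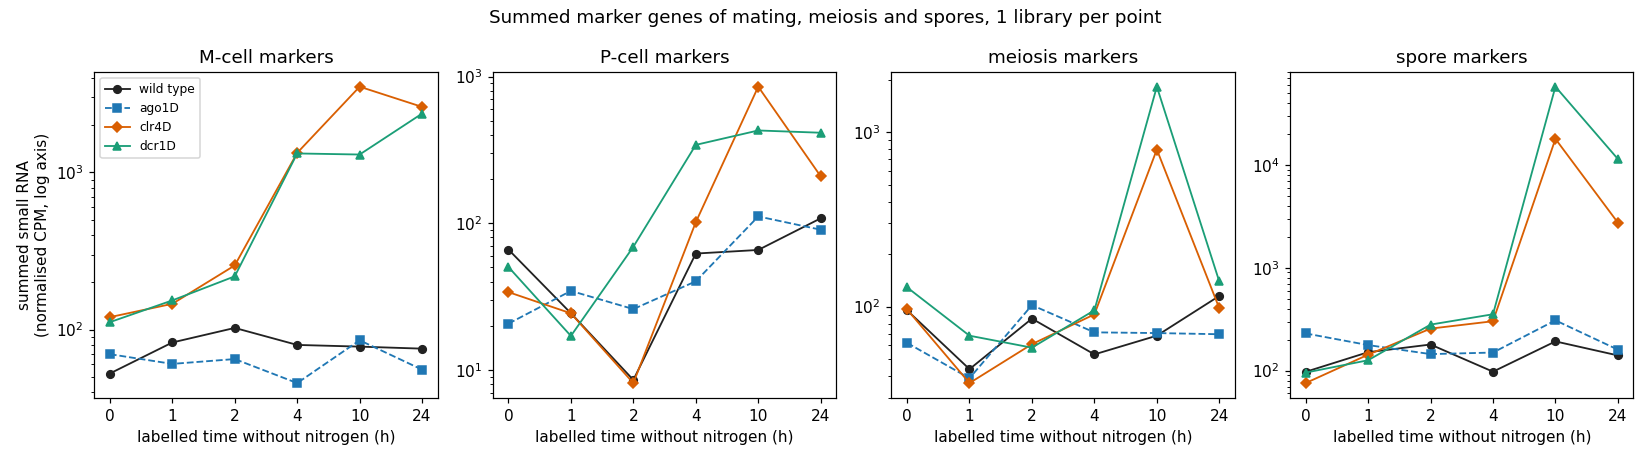
Summed small RNA of 5 M-cell, 2 P-cell, 9 meiosis and 4 spore genes (vertical axis, normalised CPM, log scale) against the labelled time without nitrogen (horizontal axis, h), 1 library per point and a line per strain. The meiosis and spore sums of clr4D and dcr1D peak at 10 h, when the spore sum is at least 17907 CPM, while those of wild type and ago1D stay at or below 308 CPM throughout.

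**Figure D2:**
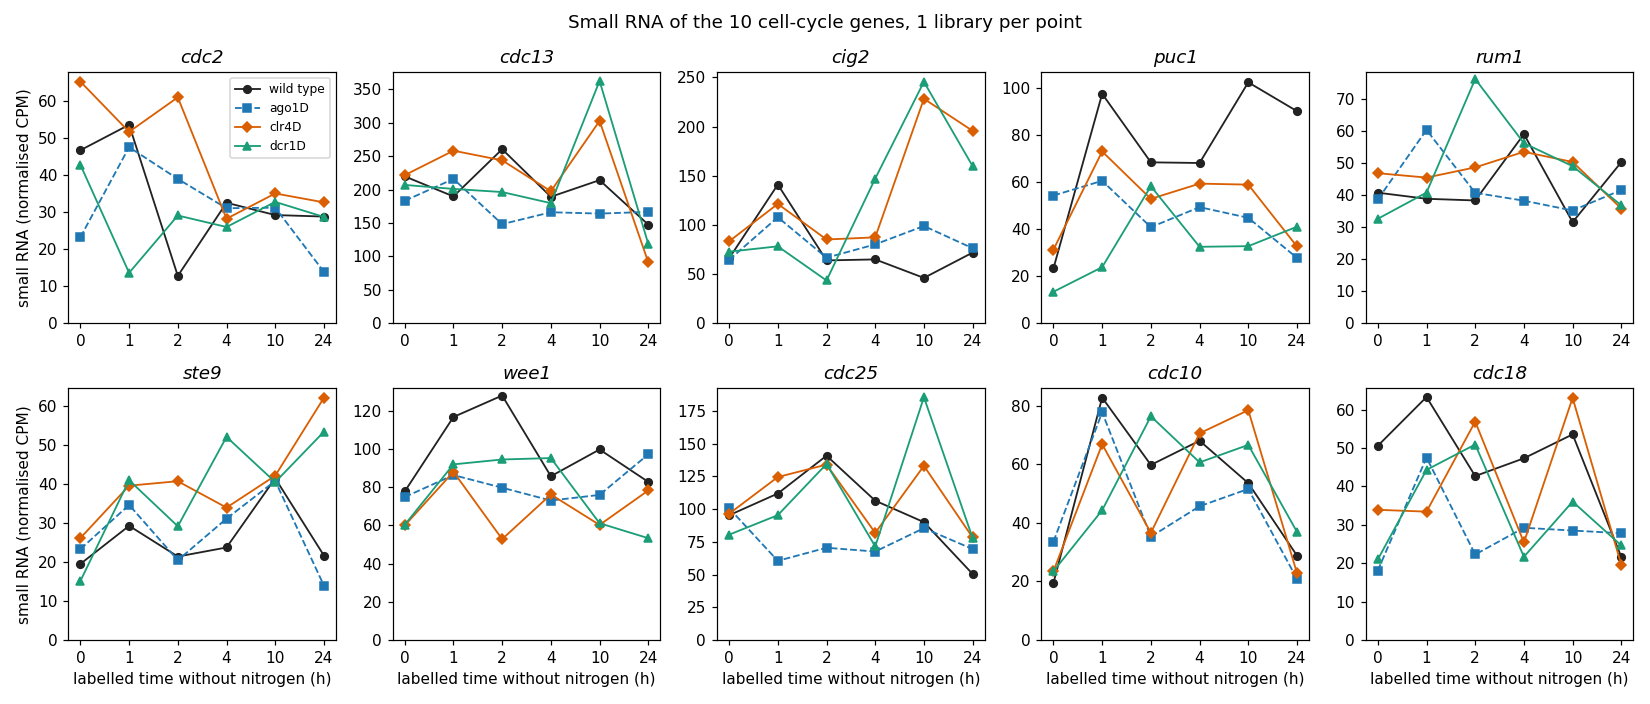
Small RNA of the 10 genes (vertical axis, normalised CPM) against the labelled time without nitrogen (horizontal axis, h), 1 library per point and a line per strain. The clr4D and dcr1D libraries at 10 h hold the highest cig2 values, 228 and 246 CPM, and from 1 h on the puc1 values of wild type lie above those of the other strains.

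Across the 6 times in wild type, clr4D and dcr1D, 7 of the 10 members differed (edgeR's quasi-likelihood test with Benjamini-Hochberg adjustment over all 3928 genes tested, threshold 0.05): cdc13, cig2, puc1, ste9, cdc25, cdc10 and cdc18. Of all genes tested, 57.9% differed among the times, and 7 of 10 is close to that share. At 1 h, 2 members had risen against 0 h, where 33.5% of all genes were called and 16.9% had risen. At 2 h again 2 had risen (36.7% called, 18.8% risen), and at 4 h 3 had (29.8% called, 14.9% risen, 14.8% fallen). At 10 h 5 had risen (44.1% called, 23.2% risen, 20.9% fallen), and at 24 h 2 had risen and 1 had fallen (39.6% called, 22.4% risen, 17.2% fallen). The median log2 change of the 10 members was 0.55 at 1 h, 0.60 at 2 h, 0.47 at 4 h, 0.67 at 10 h and 0.17 at 24 h, and that of all genes stayed between 0.03 and 0.08. Without dcr1D 1 member differed among the times and 0, 2 and 0 passed at 2, 10 and 24 h, and without clr4D 2 differed among the times and 3 and 1 passed at 10 and 24 h. With scaling by total gene counts alone the median of all genes was 0.16, 0.64, 0.51, 0.93 and 1.19 at the successive times. The changes given below are relative to the TMM scale.

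**Figure D3:**
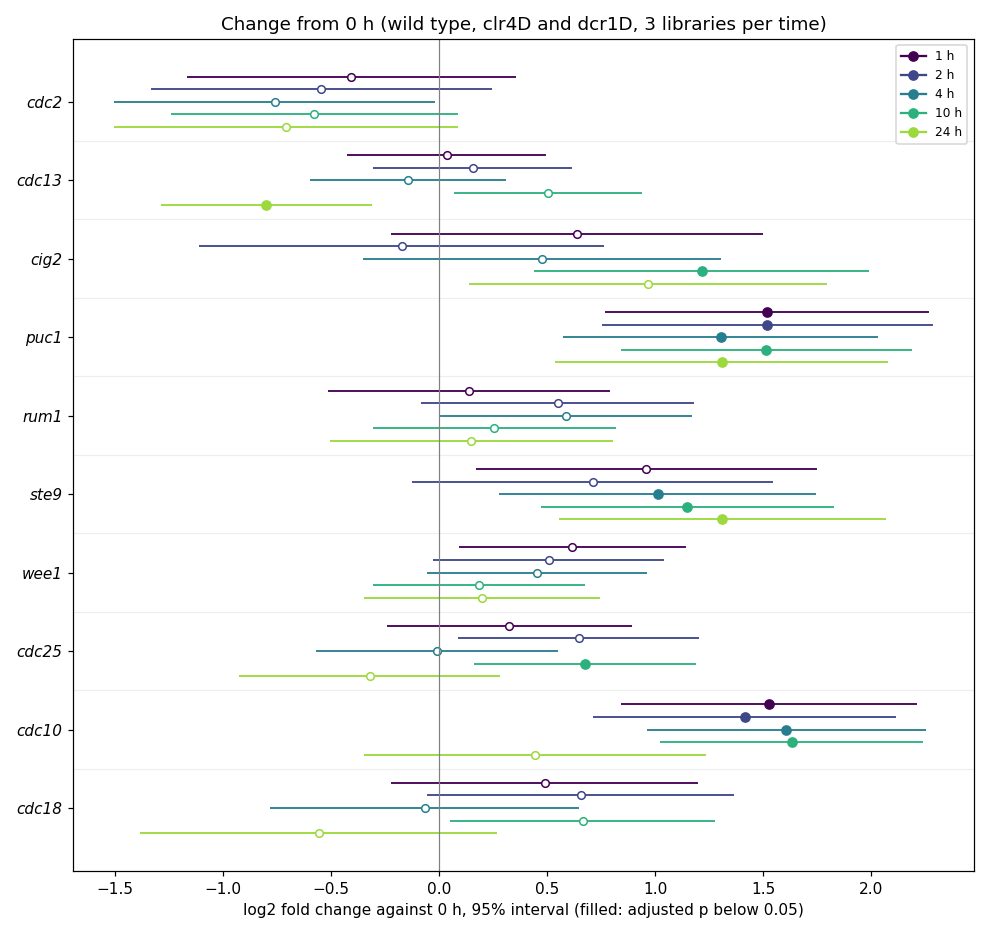
Log2 fold change of each gene at 1, 2, 4, 10 and 24 h against 0 h (horizontal axis) with its 95% interval, from 3 libraries per time (wild type, clr4D and dcr1D). Filled points passed an adjusted p of 0.05. The changes of puc1 lie between 1.30 and 1.52 at all 5 times, those of cdc10 between 1.41 and 1.63 up to 10 h and at 0.44 at 24 h.

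Among the cyclins, puc1 rose by 1 h and passed the test at every later time. In wild type its small RNA was at 23.3 CPM at 0 h, and at 97.3, 68.3, 68.0, 102 and 90.0 CPM at 1, 2, 4, 10 and 24 h. In clr4D it was at 31.3 CPM and then at 72.9, 52.8, 59.3, 58.8 and 32.6 CPM. In dcr1D it was at 13.4 CPM and then at 23.8, 58.2, 32.5, 32.7 and 41.0 CPM. In each of these strains the 0 h library was the lowest of the 6, so that no starved library overlapped with 0 h of its own strain. Against 0 h the log2 fold change was 1.52 ± 0.36 (SE) at 1 h (adjusted p = 0.00218, edgeR), 1.52 ± 0.37 at 2 h (0.00243), 1.30 ± 0.35 at 4 h (0.00698), 1.51 ± 0.32 at 10 h (0.000654) and 1.31 ± 0.37 at 24 h (0.00739). Without dcr1D the changes at 2 and 24 h were 1.18 (0.0636) and 1.19 (0.0535), and without wild type those at 4 and 24 h were 1.11 (0.0597) and 0.85 (0.179). The ago1D libraries held 54.2, 60.5, 40.8, 49.3, 44.8 and 27.8 CPM in the order of their labelled times. The library labelled 0 h had a profile closest to 1 h. That labelled 2 h, with 40.8 CPM, was closest to 0 h, so the labels do not settle the ago1D level before starvation.

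The mitotic cyclin gene cdc13 had the deepest counts of the 10. Wild type held 220, 190, 260, 189, 214 and 148 CPM at 0, 1, 2, 4, 10 and 24 h. The clr4D libraries held 222, 258, 244, 198, 303 and 91.4 CPM, and the dcr1D libraries 207, 201, 196, 180, 362 and 119 CPM. In all 3 strains the 24 h library was the lowest, and cdc13 fell by 0.80 ± 0.24 on the log2 scale at 24 h against 0 h (adjusted p = 0.00965, edgeR), although with total-count scaling the same change is 0.32. It was -0.63 (0.162) without clr4D and -0.82 (0.0528) without dcr1D. At 10 h the clr4D and dcr1D libraries were the highest of their series and the wild type library was not. The log2 change at 10 h was 0.51 ± 0.21 (adjusted p = 0.0544), and from 1 to 4 h the changes lay between -0.14 and 0.16. In ago1D cdc13 ranged only from 148 to 216 CPM.

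The S-phase cyclin gene cig2 had its highest values late and in clr4D and dcr1D. Wild type held 66.1, 141, 64.0, 65.1, 46.2 and 72.0 CPM at 0, 1, 2, 4, 10 and 24 h, and ago1D 64.5, 108, 66.8, 80.3, 99.0 and 76.4 CPM. The clr4D libraries held 83.4, 121, 85.3, 87.5, 228 and 196 CPM, and the dcr1D libraries 72.9, 78.4, 43.6, 147, 246 and 160 CPM. At 10 h and at 24 h the clr4D and dcr1D libraries were each above both other strains. They were so at 0 and 4 h too, by smaller margins at 0 h (83.4 and 72.9 against 66.1 and 64.5 CPM), and not at 1 or 2 h. Over the 3 strains cig2 rose at 10 h against 0 h by 1.21 ± 0.37 (log2, adjusted p = 0.0111, edgeR). The wild type library at 10 h, with 19 counts, was below that at 0 h. With the clr4D and dcr1D libraries of 10 h left out, that 1 library is the whole 10 h group, and the change was -0.35 (adjusted p = 0.724). Without all clr4D libraries it was 0.96 (0.175), and without all dcr1D libraries 0.79 (0.214).

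The gene of the kinase itself, cdc2, was among the shallowest, with 2 to 51 counts per library, and showed no change that passed the test. Wild type held 46.7, 53.5, 12.8, 32.5, 29.2 and 28.8 CPM and dcr1D 42.7, 13.6, 29.1, 26.0, 32.7 and 28.7 CPM. The clr4D libraries fell from 65.2, 51.6 and 60.9 CPM to 28.2, 35.0 and 32.6 CPM. All 5 fitted changes against 0 h were negative, from -0.41 to -0.76. The 95% interval was -1.17 to 0.35 at 1 h and -1.50 to -0.018 at 4 h, where the adjusted p was smallest (0.116, edgeR). At 4, 10 and 24 h the libraries of these 3 strains all lay below all of theirs at 0 h. With total-count scaling the changes at 10 h and 24 h are 0.29 and 0.44.

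Of the 2 negative regulators that hold cells in G1, ste9 rose and rum1 did not pass the test. Small RNA of ste9 stood at 19.4, 29.2, 21.3, 23.7, 41.4 and 21.6 CPM in wild type over the 6 times. It stood at 26.1, 39.5, 40.6, 33.9, 42.0 and 62.0 CPM in clr4D and at 15.1, 40.9, 29.1, 52.0, 40.4 and 53.3 CPM in dcr1D. The 0 h library was the lowest of each of these series. The log2 change against 0 h was 1.01 ± 0.35 at 4 h (adjusted p = 0.0342, edgeR), 1.15 ± 0.33 at 10 h (0.00661) and 1.31 ± 0.36 at 24 h (0.0065), and it was 0.96 (0.0557) at 1 h. The call at 4 h was lost without a filter, with DESeq2, with all 24 libraries and without clr4D or dcr1D, where in the last case the change was 0.36 (0.664). Without dcr1D the changes at 10 and 24 h were 0.88 (0.132) and 0.93 (0.143), and without clr4D that at 24 h was 1.21 (0.0748). At 24 h the wild type library, with 6 counts, was close to its 0 h value, whereas those of clr4D and dcr1D were their highest.

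Small RNA of rum1 lay between 31.6 and 59.1 CPM in wild type, 35.3 and 60.5 in ago1D, 35.9 and 53.6 in clr4D, and 32.7 and 76.4 in dcr1D. The fitted changes against 0 h were 0.14, 0.55, 0.59, 0.26 and 0.15 at the successive times, with 95% intervals that together reached from -0.51 to 1.18 (adjusted p over the 6 times 0.367). A rise of more than about 1.18 on the log2 scale was therefore outside every interval on the TMM scale. At 4 h the interval was 0.0007 to 1.17 (adjusted p = 0.125, edgeR). There the wild type, clr4D and dcr1D libraries (53.6 to 59.1 CPM) all lay above all of theirs at 0 h (32.7 to 46.9 CPM). With total-count scaling rum1 passed the test at 10 h, where its change is 1.10, and at 24 h, where it is 1.26, as well as at 2 h (1.14), at 4 h (1.04) and over the 6 times.

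The kinase wee1 and the phosphatase cdc25, which oppose each other on Cdc2, were both at moderate depth. Wild type held 77.8, 117, 128, 85.8, 99.8 and 82.8 CPM of wee1, clr4D 60.0, 88.1, 52.8, 76.2, 60.2 and 78.3 CPM, and dcr1D 60.3, 92.0, 94.5, 95.3, 61.1 and 53.3 CPM. Its changes against 0 h were 0.62, 0.51, 0.45, 0.18 and 0.20, none of which passed (smallest adjusted p = 0.0642, edgeR), although with total-count scaling it passed at 2 h (1.13), 4 h (0.92), 10 h (1.01) and 24 h (1.33). Small RNA of cdc25 stood at 95.3, 112, 141, 106, 90.0 and 50.4 CPM in wild type, at 96.5, 125, 134, 81.8, 133 and 78.3 CPM in clr4D, and at 80.5, 95.4, 135, 71.5, 186 and 77.9 CPM in dcr1D. All 3 series were at their lowest or second lowest at 24 h. The 10 h libraries of clr4D and dcr1D were above those at 0 h, and that of wild type was not. Its log2 change at 10 h was 0.68 ± 0.25 (adjusted p = 0.031), and it was 0.66 (0.157) without clr4D and 0.27 (0.551) without dcr1D. With both their 10 h libraries left out the 10 h group is the 1 wild type library, and the change was 0.01.

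The MBF subunit gene cdc10 rose within the first hour, and its change at 24 h did not pass on the TMM scale. Wild type held 19.4 CPM at 0 h, then 82.7, 59.8, 68.0, 53.5 and 28.8 CPM. In clr4D it was at 23.5 CPM and then at 66.8, 36.6, 70.5, 78.5 and 22.8 CPM, and in dcr1D at 23.5 CPM and then at 44.3, 76.4, 60.6, 66.6 and 36.9 CPM. Every library from 1 to 10 h was above all 3 libraries at 0 h. The log2 change against 0 h was 1.53 ± 0.33 at 1 h (adjusted p = 0.000916, edgeR), 1.41 ± 0.34 at 2 h (0.0021), 1.61 ± 0.31 at 4 h (0.000406) and 1.63 ± 0.29 at 10 h (0.000121). At 24 h it was 0.44 ± 0.38 (adjusted p = 0.371), or 1.60 with total-count scaling, and it rests on 7 to 9 counts per library. Without dcr1D the change at 2 h was 1.19 (0.067). The ago1D libraries held 33.6, 77.7, 35.2, 45.6, 51.5 and 20.8 CPM in the order of their labelled times.

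The MBF target cdc18 differed among the 6 times (adjusted p = 0.04, edgeR), but no single time passed against 0 h. Wild type held 50.6, 63.3, 42.7, 47.3, 53.5 and 21.6 CPM, clr4D 33.9, 33.4, 56.9, 25.4, 63.0 and 19.6 CPM, and dcr1D 21, 44.3, 50.9, 21.7, 36.0 and 24.6 CPM. Wild type and clr4D were at their lowest at 24 h. The changes were 0.49, 0.66, -0.07, 0.67 and -0.56, with the smallest adjusted p at 10 h (0.0728), where total-count scaling gave 1.48 and a call.

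Between strains at matched labelled times 1 of 30 tests of members passed, puc1 in dcr1D. It was the one member called there, where 9.47% of all genes differed from wild type, 6.08% being higher and 3.39% lower. With 94 counts over 6 libraries against 138 in wild type, puc1 was lower in dcr1D than in wild type at 6 of 6 times, by -1.15 ± 0.24 on the log2 scale (95% interval -1.66 to -0.65, adjusted p = 0.00474, edgeR). The difference was -0.47 in clr4D (interval -0.96 to 0.01, adjusted p = 0.352) and -0.59 in ago1D (interval -1.16 to -0.01, adjusted p = 0.269). Without the ago1D libraries labelled 0, 1 and 2 h that last difference was -0.86 (adjusted p = 0.0849). Whether the 3 mutants differ from each other in puc1 was not tested.

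No member passed in clr4D (edgeR, 0 of 10, with 3 at an unadjusted p under 0.05 and 0 by DESeq2), where 1.58% of all genes were called, 1.17% higher and 0.407% lower. The nearest were cig2, 0.80 higher (interval 0.17 to 1.43, adjusted p = 0.215), wee1, -0.47 and lower at 6 of 6 times (adjusted p = 0.239), and ste9, 0.58 and higher at 6 of 6 times (adjusted p = 0.31). For cdc13 the interval of the difference was -0.25 to 0.42, for rum1 -0.31 to 0.61 and for cdc10 -0.45 to 0.50. No member passed in ago1D either (edgeR, 0 of 10, with 2 at an unadjusted p under 0.05 and 0 by DESeq2), where 4.31% of all genes were called. There the log2 difference of cdc18 was -0.80 (interval -1.35 to -0.25, adjusted p = 0.101), and it was -0.66 (adjusted p = 0.275) without the 3 libraries labelled 0, 1 and 2 h. The median difference of the 10 members was -0.22 in ago1D, 0.11 in clr4D and 0.04 in dcr1D, beside -0.02, 0.00 and 0.02 for all genes. These 3 comparisons share the wild type libraries.

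**Figure D4:**
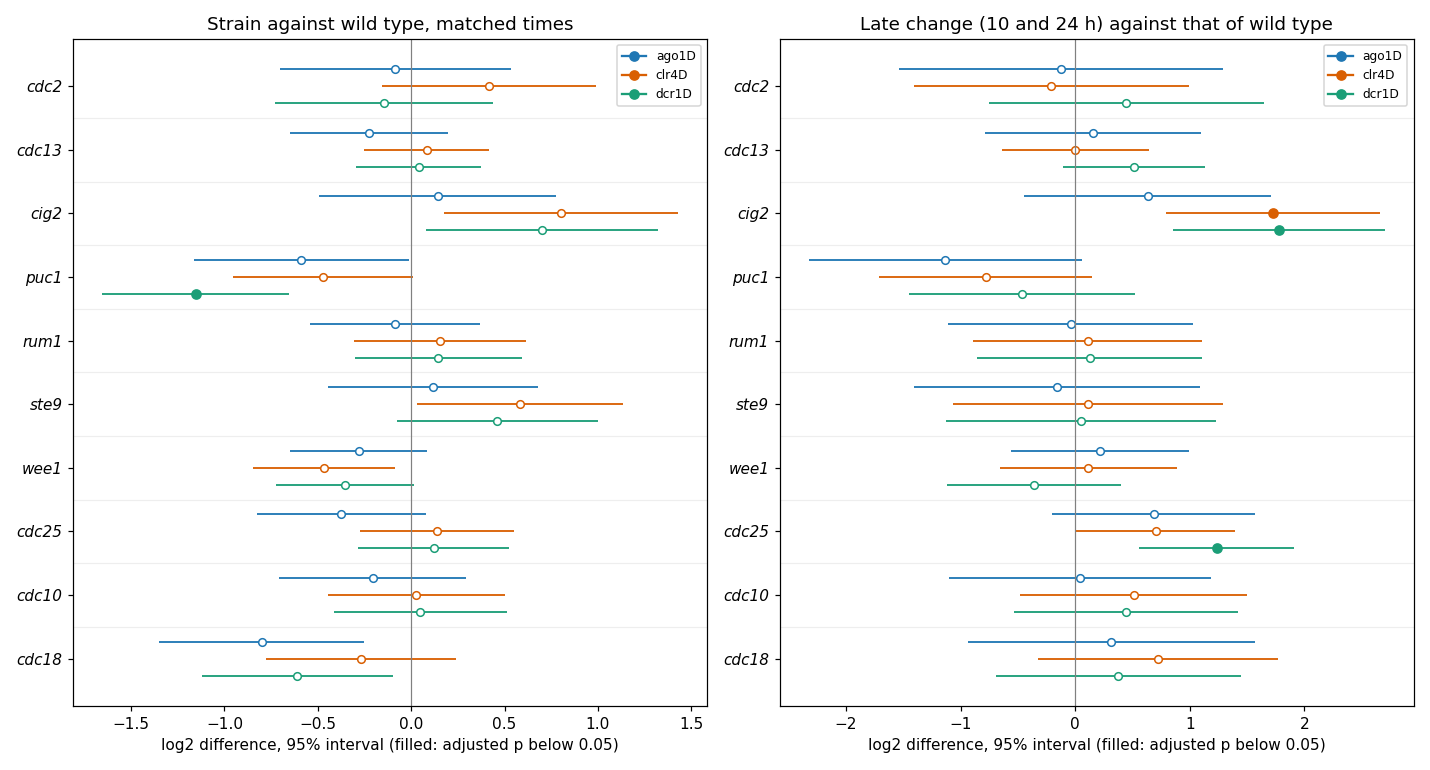
Left, log2 difference of each gene between a strain and wild type over matched labelled times. Right, the late change of a strain (10 and 24 h against the earlier times) minus that of wild type. Both on the horizontal axis with 95% intervals, filled where the adjusted p was below 0.05. The filled points are puc1 in dcr1D on the left (-1.15), and cig2 in clr4D (1.72) and dcr1D (1.78) and cdc25 in dcr1D (1.23) on the right.

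The late change, the level at 10 and 24 h against that at 0 to 4 h, was compared between each mutant and wild type as an interaction term. For cig2 it was larger than in wild type by 1.72 ± 0.45 on the log2 scale in clr4D (95% interval 0.79 to 2.66, adjusted p = 0.0377, edgeR), the 1 member called where 3.54% of all genes were called and 2.04% were higher. In dcr1D it was larger by 1.78 ± 0.45 for cig2 (interval 0.85 to 2.70, adjusted p = 0.0223) and by 1.23 ± 0.33 for cdc25 (interval 0.56 to 1.91, adjusted p = 0.0259), the 2 members called where 5.91% were called and 2.90% were higher. In ago1D no gene passed (0.00% of 4220; 0 members and 247 genes at an unadjusted p under 0.05, 0 members by DESeq2), and the difference for cig2 was 0.63 (interval -0.45 to 1.71). For cdc25 the difference was 0.70 in clr4D (interval 0.01 to 1.40, adjusted p = 0.243) and 0.69 in ago1D (adjusted p = 0.867). The dcr1D libraries held 186 CPM of cdc25 at 10 h but 77.9 at 24 h, below the 80.5 at 0 h. Without the 10 h libraries of clr4D and dcr1D, which leaves 1 late library in each, the cig2 differences were 1.33 in clr4D (adjusted p = 0.0838) and 1.06 in dcr1D (adjusted p = 0.321), and that of cdc25 in dcr1D was 0.96 (adjusted p = 0.345). Leaving out 0 h, 1 h, 2 h or 10 h from all strains gave 0 members in either mutant.

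At 10 h cig2 had 163 counts in clr4D and 225 in dcr1D against 19 in wild type, ratios of 4.94 (95% exact interval 3.06 to 8.41) and 5.31 (3.32 to 8.99) after scaling. In ago1D it had 73 counts, a ratio of 2.14 (1.28 to 3.76). At 24 h the cig2 ratios were 2.72 (1.62 to 4.76) in clr4D, 2.22 (1.26 to 4.02) in dcr1D and 1.06 (0.459 to 2.32) in ago1D. For cdc25 at 10 h the ratio was 2.06 (1.44 to 3.03) in dcr1D and 1.48 (1.00 to 2.22) in clr4D, and for cdc13 it was 1.69 (1.33 to 2.17) and 1.41 (1.10 to 1.83). The ratio of puc1 at 10 h ran the other way, at 0.32 (0.194 to 0.524) in dcr1D, 0.576 (0.366 to 0.905) in clr4D and 0.438 (0.269 to 0.708) in ago1D. These intervals cover counting error only, since each value is 1 library. At 10 h 6 of the 10 members (cdc2, cdc13, cig2, rum1, cdc25 and cdc10) were higher in both clr4D and dcr1D than in both wild type and ago1D, against 22.5% of all genes tested. That count goes by order only, whatever the size of the difference. For cdc2, rum1 and cdc10 the interval of the ratio to wild type included 1 in both clr4D and dcr1D. In clr4D it was 0.581 to 2.62 for cdc2, 0.826 to 3.28 for rum1 and 0.881 to 2.52 for cdc10. In dcr1D it was 0.558 to 2.41, 0.823 to 3.14 and 0.753 to 2.13. The spore genes stood at 17907 CPM or more in the clr4D and dcr1D libraries at 10 h.

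Over 8 further lists of genes from the same pathways, 36 of 64 tested differed among the times, close to the 57.9% of all genes. None passed in ago1D or clr4D against wild type, and in dcr1D 3 of 64 did, where 9.47% of all genes were called, each higher: apc5 of the APC/C (0.85), tsc1, a negative regulator of TOR (0.63), and mcm5 of the replicative helicase (0.72). Of 8 MBF targets tested, 7 differed among the times, beside 57.9% of all genes. Among the rises were those of ctp1, which processes DNA ends, at 10 h (2.08 ± 0.31, adjusted p = 1.63e-05, edgeR) and at 24 h (2.63 ± 0.32, adjusted p = 1.63e-06), and of cdt2, an adaptor for a ubiquitin ligase, at 1 h (2.15 ± 0.40, adjusted p = 0.000212). The ribonucleotide reductase gene cdc22 rose by 0.84 at 24 h, and dut1, the dUTPase, fell by 1.56 at 4 h. Of 5 MBF subunits and regulators tested, res2, the DNA-binding partner of Cdc10, rose at 1 h (1.68), 2 h (1.48) and 10 h (1.43), and the repressor gene yox1 at 1 h (1.04).

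Of 11 APC/C and SCF genes tested, 7 rose at 10 h and none fell, beside 23.2% of all genes that rose, and among them were nuc2 (1.88), cut4 (2.19) and apc5 (1.36). The clr4D and dcr1D libraries, where meiosis and spore genes peaked, were the high ones: cut4 stood at 141 and 210 CPM in them against 41.4 in wild type (40.8 at 0 h), and nuc2 at 102 and 184 against 43.8. Their median change at 10 h was 1.27 beside 0.08 for all genes, and none passed at 24 h. The gene slp1, whose product activates the APC/C in mitosis, had a larger late change in dcr1D than in wild type (1.57 ± 0.44, adjusted p = 0.0356, edgeR). Its dcr1D libraries held 171 CPM at 10 h but 41.0 at 24 h, below the 86.3 at 0 h. The cohesin gene rad21 had a larger late change in clr4D (2.23 ± 0.59, adjusted p = 0.0404), with 60.2 CPM at 10 h and 157 at 24 h. The 10 h value of clr4D lay below its 85.3 CPM at 2 h, so the high late level was that of 1 library. The wild type library at 24 h was the lowest of its series, and dcr1D held 36.9 CPM of rad21 there. The ago1D library labelled 24 h, which was outside that fit, held 153 CPM, close to clr4D. Upstream of Wee1, the kinase genes cdr2 (1.06 at 1 h, 0.93 at 2 h, 1.05 at 4 h) and cdr1 (0.65 at 1 h, 0.73 at 2 h) rose early. Of 9 genes of mitotic transcription and septation, 6 differed among the times, near the share of all genes. The glucanase gene eng1 fell by 2.51 at 10 h and by 2.82 at 24 h, mid2 fell by 1.43 at 24 h, and the forkhead gene sep1 rose by 1.58 at 1 h. Of 11 genes linking nitrogen to the kinase, 7 differed, again near that share. The TOR regulator genes tsc1 (1.50) and tsc2 (0.93) rose at 1 h. The fitted change of gad8, a kinase downstream of TOR, was 1.72 at 24 h, where clr4D held 845 CPM but wild type 97.2 (70.0 at 0 h) and dcr1D 98.4 (95.5 at 0 h). The ago1D library labelled 24 h, which was outside that fit, held 382 CPM of gad8 (129 in that labelled 0 h). Of 13 origin and helicase genes tested, orc4 rose at 1 h (0.96) while hsk1, the kinase that fires origins, changed by -1.62, and mcm5 rose at 24 h (1.31). Of the 3 Cdk partner genes tested, mcs6, the kinase of the Cdk-activating complex, rose at 10 h (1.71), with 71.5 CPM in clr4D and 104 in dcr1D against 29.2 in wild type.

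Features on the opposite strand overlap 7 of the members by annotation. The calcium pump gene pmc1 covers 33.3% of cig2 and had 3318 counts over the 24 libraries against 1154 for cig2. It rose as well, by 1.95 at 10 h against 0 h (adjusted p = 2.17e-05, edgeR), and was higher than in wild type by 1.09 in dcr1D (0.00328) and by 1.14 in ago1D (0.0189), and its late change was larger in dcr1D than in wild type by 1.18 (0.0378). The non-coding SPNCRNA.846, which lies wholly opposite cig2, had 167 counts, so the deposited counts kept reads of both strands apart there. The ribose-5-phosphate isomerase gene rki1 covers 21.8% of ste9 and moved the other way, with changes of -2.21 at 1 h and -1.14 at 24 h. The vps52 gene covers 15.4% of cdc10 and did not pass at any time. The remaining overlaps were with SPNCRNA.1495 on cdc18 (17 counts in all), SPNCRNA.1438 on cdc2 (5 counts), SPBP8B7.31 on puc1 (133 counts) and dsh1 on cdc13, which covers 0.284% of it. For rum1, wee1 and cdc25 no overlapping feature was found.

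The genes whose small RNA followed each member most closely were picked from 3927 others by Pearson's r of log2 CPM over the 18 libraries outside ago1D. They were cao2 (0.893) and aly2 (0.889) for puc1, SPAC4G8.04 (0.88) and lvs1 (0.875) for cdc10, sec27 (0.897) and thi5 (0.879) for cdc13, and str2 (0.822) and dhc1 (0.804) for cig2. For cdc25 they were slp1 (0.853) and vac8 (0.835), for ste9 SPNCRNA.995 (0.84) and vps8 (0.839), and for cdc18 dfg501 (0.787) and alp5 (0.771). The libraries share their time course and their scaling, and these values describe likeness only.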

How the data were processed

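Small RNA was measured in 24 libraries of 4 strains at 6 times. The authors deposited raw read counts per gene. Per the submitters' processing notes, cutadapt, Bowtie2 2.1.0, HTSeq 0.6.1 and the assembly ASM294v2 were used; per the labels' protocols, RNA of 20-30 nt was gel-purified. The 5 HTSeq summary lines were left out. Reads in genes were 1.27 to 25.2% of all reads, and 67.3 to 97.4% had been set aside for low mapping quality, so repeated sequence is largely uncounted. Symbols and overlaps came from the ASM294v3 annotation (6704 of 6878 features matched).

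The main test was edgeR 4.0.16's quasi-likelihood F-test on the counts (R 4.3.3, TMM, filterByExpr by strain with a minimum count of 10, Benjamini-Hochberg over all genes, threshold 0.05). Strain and time were terms. Wild type, clr4D and dcr1D (18 libraries, 3928 genes) entered most fits, and all 24 (4220 genes) those on ago1D. With strain and time alone these left 10 and 15 residual degrees of freedom, and in the fits of the late change 8 and 12. SE is the log2 fold change over the square root of F. The late change is a strain term for 10 and 24 h. Ratios of single libraries carry 95% exact conditional intervals. The scripts were tested on simulated data.

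All members are named, up to 3 passing genes per pathway list and comparison with the smallest adjusted p, and the 2 genes most like each member that differed among the times. The members and lists were chosen with earlier results of these data known. Alternatives were RLE and total-count scaling, no filter, DESeq2 1.42.0, other library sets and leaving out each strain or time.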

Additional observations from a re-analysis of the deposited data

Results flagged for a closer look

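The 3 results below are singled out because the change within a mutant differed from the change in wild type by a test of the difference itself. The late change of cig2, at 10 and 24 h against the earlier times, exceeded that of wild type by 1.72 on the log2 scale in clr4D and by 1.78 in dcr1D. The late change of cdc25 exceeded that of wild type by 1.23 in dcr1D. Its dcr1D libraries held 186 CPM at 10 h but 77.9 at 24 h, below the 80.5 at 0 h. Of 12 alternatives, cig2 lost its call in 7 in clr4D and in 6 in dcr1D, and cdc25 lost it in 9. Each of the 3 results rests on 2 late libraries per strain. The spore genes summed to 2744 CPM or more in all 4 late clr4D and dcr1D libraries.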

How the results depend on the processing

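Of the 26 member results that passed, 6 kept their call under every alternative run: puc1 in dcr1D (range -1.33 to -1.01), cdc10 over the 6 times, puc1 and cdc10 at 1 h, cdc10 at 4 h and puc1 at 10 h. Over 247 recomputed values 171 kept the call, 74 lost it and 2 turned direction; the cause was not tested. The 2 that turned were cdc13 at 24 h with total-count scaling (0.32) and cig2 at 10 h without the clr4D and dcr1D libraries of that time (-0.35, with 1 library left at 10 h). With DESeq2, 4 members differed among the times and 0 (clr4D) and 1 (dcr1D) in the late change. For the late change of clr4D, DESeq2 gave no adjusted p for cdc2, puc1, rum1, ste9, cdc10 and cdc18. Its adjusted p for cig2 there was 0.0508. With all 24 libraries 1 differed among the times, 0 at 2 h, 1 at 4 h, 1 at 24 h and 0 in either late change. With total-count scaling 8 passed at 2 h, 5 at 4 h, 9 at 10 h and 6 at 24 h. Without a filter 1 passed in the late change of dcr1D. Without the 10 h libraries of clr4D and dcr1D 2 passed at 10 h and 0 in either late change. Leaving out 1 strain or time gave 0 to 1 members in ago1D (puc1, without 0 h), 1 to 6 among the times, 0 to 2 at 2 h, 2 to 7 at 10 h and 0 to 3 at 24 h, where leaving out dcr1D gave 0 at 2 h and at 24 h. In the late change it gave 0 to 1 in clr4D, with 0 without 0, 1, 2 or 10 h, and 0 to 3 in dcr1D, with 0 without the same times. The labelled time was a term in every fit, and no replicate block was added because the labels carry no replicate numbers. Depth is a limit for cdc2, ste9, cdc18, cdc10, rum1 and puc1, each with fewer than 10 counts in some libraries.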
